A study of Mus musculus with 6 samples.

Results

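The sequences described here are long small-RNA reads without an annotated source: distinct reads of 28 to 34 nt that matched no GENCODE M21 transcript on the sense strand without mismatch. They were selected on their counts, at a summed count of at least 100 over the 6 libraries. Of 2543604 distinct reads in the series, 398663 were 28 to 34 nt long and 316223 of these had no match. The threshold left 1195 member reads with 1602837 counts, or 72.8% of the counts of all unmatched reads of this length. Joining reads with the same first 15 bases gave 480 groups, numbered below by their summed count. Joining reads that share 20 bases in a row gave 171 families. At the threshold, 14 members had a sum of 100 and 6 unmatched reads just outside had a sum of 99. The median member had 248 counts and the most abundant had 228338.

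The libraries come from the sensorimotor cortex of male C57BL/6J mice at postnatal day 90, taken 7 days after surgery. In the SCI group the whole spinal cord was cut at the cervical level C5/6, and in the control group, titled wt, the cord was exposed and left undamaged. Each group has 3 libraries from samples collected one by one, and the labels give no batch. Total counts ran from 10585062 to 24480988 reads, and the files end at 34 nt, so longer fragments are not seen here.

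Reads of this length are a mixture in most tissues. Transfer RNAs (tRNAs) carry amino acids to the ribosome and are cut in the anticodon loop by stress-activated nucleases such as angiogenin, which leaves a 5′ fragment of about the length studied here. Such fragments have been described in injured and stressed nervous tissue. tRNA genes hold an internal promoter element, the A box, near their 5′ end, so its letters also mark reads of 5′ tRNA fragments. Mature tRNAs end in CCA, which an enzyme adds after transcription and no nuclear gene encodes. tRNAs are also dense in modified bases, which reverse transcriptase can read with another letter or skip. Ribosomal RNA (rRNA) fragments add to the same length range, and so do piRNAs, germline RNAs that often begin with U and, when made in the ping-pong cycle, carry A at base 10.

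The letters of the largest groups are shown first, because the comparison turns on which RNAs they come from. In the tRNA-type reads the capitals mark the A box. The names before the colon are those under which these letters are known, given as background. No nuclear rRNA sequence and no genome was used here, and few nuclear tRNA genes could be read, so most names were not checked against a gene. The last letters of the Leu-type read differ from those of other Leu-type reads shown further below. Which form a gene holds was not examined.
Group 1, 3′ end of 5.8S rRNA: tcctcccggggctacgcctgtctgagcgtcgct
Group 4, inner 28S rRNA: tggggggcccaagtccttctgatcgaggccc
Group 12, 3′ end of 28S rRNA: gaaagtcagccctcgacacaagggtttgt
Group 13, 5′ end of 5.8S rRNA: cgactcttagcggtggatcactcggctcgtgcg
Group 2, Gly-type: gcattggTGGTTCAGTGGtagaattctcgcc
Group 7, Val-type: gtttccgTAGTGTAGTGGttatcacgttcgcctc
Group 24, second Gly-type: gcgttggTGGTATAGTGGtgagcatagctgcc
Group 19, Lys-type: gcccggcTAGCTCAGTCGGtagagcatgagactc
Group 16, Leu-type: gtcaggaTGGCCGAGCGGtctaaggcct

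The next reads differ from these by a single letter. The capital marks the changed base, counted from 1 at the 5′ end of the group's own read.
Group 8, Gly-type with G6T: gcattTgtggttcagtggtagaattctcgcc
Group 22, Gly-type with T5G: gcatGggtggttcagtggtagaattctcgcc
Group 85, second Gly-type with G6T: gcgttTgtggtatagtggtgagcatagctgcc

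In the last set the capitals mark last letters that do not match the annotated transcript. For mt-Tk they lie beyond its end. For Rny1 the largest read of the family matches a T at that place, so the A is not beyond the end. The bases after the letters known for the 5′ sequencing adapter are in capitals in the third read.
Group 41, mt-Tk: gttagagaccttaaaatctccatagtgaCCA
Group 17, Rny1: cttctcactactgcacttgactagtctA
Adapter-type: tcagagttctacagtccgacgatcGGAA

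Of all reads, the members held 1.14%, 0.609% and 0.496% in the control libraries and 0.611%, 2.83% and 2.03% in the SCI libraries, each in the order of replicates 1, 2, 3. SCI 2 and SCI 3 lay above every control, whereas SCI 1 lay within the control range. The group means were 0.749% ± 0.345 (SD, n = 3) and 1.82% ± 1.12, a difference of 1.07 percentage points that did not exceed the spread between libraries (exact two-sided permutation test, p = 0.2, where 0.1 is the smallest value that 3 against 3 allows). Without SCI 2 the difference was 0.570 points and without SCI 1 it was 1.68. Reads of 28 to 34 nt that match a transcript followed the same order of libraries at the top, at 0.811%, 0.508% and 0.368% in the controls and 0.342%, 1.29% and 0.854% in SCI. Within the reads of 28 to 34 nt, members made up 48.8%, 44.1% and 46.6% in the controls and 51.9%, 54.8% and 55.2% in SCI, so on this base all 3 SCI libraries lay above all controls (exact permutation p = 0.1). In bulk tissue, fewer cells of a type and less RNA per cell cannot be told apart.

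By length, the members' share of all reads peaked at 33 nt in SCI 2, SCI 3 and control 1, at 0.729%, 0.475% and 0.239%. Control 2, control 3 and SCI 1 peaked at 28 nt, and at 33 nt they stood at 0.107%, 0.0926% and 0.104%. At 28 nt the 6 libraries were closer, with 0.130% ± 0.0358 in the controls and 0.195% ± 0.0684 in SCI. The ratio of group means ran from 1.45 at 29 nt to 3.16 at 32 nt. No length could pass 0.05 in the exact permutation test, whose smallest possible p is 0.1. Over the 7 lengths the adjusted p of that test was 0.35 to 0.5. The mean length of the member reads was 30.9 nt ± 0.288 in the controls and 31.2 nt ± 0.510 in SCI (exact permutation p = 0.4).

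Libraries moved together across the members. Control 1 was the highest control in 381 of the 463 groups tested, and SCI 2 and SCI 3 were the highest libraries in 227. SCI 1 lay below every control in 228 groups and above every control in 63. Among reads that mark tissue, miR-9-5p, a brain miRNA, stood at 22472 to 24587 RPM (counts scaled to 1000000 reads of the library) in the controls and lower in every SCI library, at 18428 to 20367. The red-cell miRNA miR-451a stood at 99.2 to 139.5 RPM in the controls and at 89.3, 172 and 243 in the SCI libraries. miR-144-3p, also a red-cell miRNA, spanned 59.7 to 94.4 and 39.1 to 101. The part of red-cell RNA in the members' levels was not tested.

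Most of the member counts came from a few RNAs. The 4 largest families held 62.7% of them, and the largest 20 held 89.2%. By letters, 386 members with 697387 counts, or 43.5% of the member counts, carried an A box that starts at one of bases 1 to 8. Of the A-box counts, 65.9% had it at base 8, the place it takes in a read that begins with the first base of a tRNA. An A box stood in 8.01% of the counts of unmatched reads below the threshold and in 6.70% of the counts of matched reads of the same length. Reads were searched on their own strand only. A further 449 members with 46.1% of the counts had no A box, no adapter letters and no transcript within the near matches tried, and they include the rRNA-type groups. Of the remaining kinds, 106 members matched a transcript but for their last 1 to 3 bases. Another 87 were mitochondrial tRNA ends with C, CC or CCA. The others were adapter-type reads (70), transcripts with 1 mismatch (48), other reads ending in CCA (32) and reads antisense to a transcript (17).

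The largest tRNA source was the Gly type. Levels below are in RPM, with the replicates of each group in the order 1, 2, 3. Group 2, which begins at the first base, had control levels of 1427, 563 and 689 RPM and SCI levels of 887, 4468 and 2565 RPM. SCI 2 and SCI 3 exceeded every control, and SCI 1 fell between the controls. The fitted log2 fold change was 1.48 ± 0.60 (SE), with an adjusted p of 0.312 from edgeR's quasi-likelihood test. Group 6, the same RNA read from base 3, stood at 453, 82.8 and 116 in the controls and 94.7, 1012 and 479.8 in SCI (log2 fold change 1.18 ± 0.92, edgeR adjusted p = 0.621). Here control 1 lay close to SCI 3, and the groups overlapped.

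The other tRNA types gave lower levels. The second Gly type, group 24, stood at 49.0, 27.7 and 37.1 RPM in the controls and 65.6, 252 and 166 in SCI, with no overlap (log2 fold change 2.01 ± 0.48, edgeR adjusted p = 0.163). The Lys type, group 19, stood at 102, 31.5 and 55.2 against 50.6, 336 and 158, and its groups overlapped. The Leu type, group 16, stood at 141, 127 and 111 in the controls and 54.3, 362 and 119 in SCI, a fitted log2 fold change of 0.41 ± 0.60. There SCI 2 lay above every control and SCI 1 below.

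The Val type could be placed on a gene, and the Gly type could not. Of 408 nuclear tRNA genes that RefSeq lists on GRCm38.p6, the sequence of 13 could be read from promoter windows or transcripts that cover them. The first 24 bases of 37 members, with 77994 counts, lay in n-TVcac9, a tRNA gene for valine at chr13:23446142-23446214 on the minus strand, 73 bases long, which is shown with its anticodon in capitals.
n-TVcac9: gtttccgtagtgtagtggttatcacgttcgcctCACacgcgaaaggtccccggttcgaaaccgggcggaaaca
The 1 glycine gene among the 13, n-TGccc7, held the first 24 bases of 0 members. Other Val genes can share these letters, so the reads are not assigned to this copy alone. Group 7, from base 1 of the gene, stood at 247, 92.9 and 123 RPM in the controls and 161, 871 and 371 in SCI (log2 fold change 1.51 ± 0.63, edgeR adjusted p = 0.327). Group 9, from base 3, stood at 264, 67.6 and 113 in the controls and 63.0, 882 and 306 in SCI (log2 fold change 1.39 ± 0.89, edgeR adjusted p = 0.536). Both groups overlapped between control and SCI, since SCI 1 was not above control 1.

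The anticodon of this gene is at bases 34 to 36, and a read of 28 to 34 nt from base 1 or 3 can only end at bases 28 to 36. Among the 63322 reads of 28 to 34 nt that match the gene throughout, 56.1% began at base 1 and 37.02% at base 3, while base 2 held 1.09%. Their last base was most often base 32 (21.97%), base 36 (21.6%), base 34 (18.9%) or base 33 (17.3%). A read from base 1 cannot reach past base 34 in these files, so ends at base 35 and 36 come from reads that begin later. The share that ended at base 36 was 27.3%, 16.6% and 19.4% in the controls and 8.61%, 23.5% and 16.5% in SCI. SCI 1 had the lowest share of these longer ends and the groups overlapped.

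At base 34, the first anticodon base, the Val reads carried 2 letters. Of 39515 reads that reach it, 66.3% had the C of the gene and 33.4% had G (C34G), while A was read in 0.124% and T in 0.248%. Val tRNAs of the AAC type have A at this base in the gene, which is known to be deaminated to inosine and read as G. The G share was 37.8%, 40.1% and 35.1% in the controls and 36.5%, 30.5% and 38.1% in SCI, so the groups overlapped.

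The reads of both Gly types also differed between the groups in their letters. The changes were picked after their values were seen and are given without a test. Shares are the changed reads over the changed plus unchanged reads, compared over the first 28 bases. In the Gly type, G6T made up 8.99%, 9.70% and 11.6% of the control reads and 17.3%, 14.97% and 18.7% of the SCI reads. All SCI libraries lay above all controls, SCI 1 included, although its level of group 2 lay among the controls. In the second Gly type, G6T made up 9.28%, 8.98% and 10.4% against 15.4%, 13.9% and 19.8%. Both RNAs thus differed between the groups at the same base, with means of 10.1% ± 1.34 and 17.002% ± 1.89 (SD, n = 3 each) for the first and 9.55% ± 0.745 and 16.4% ± 3.07 for the second.

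The same base was changed in reads that begin 2 bases later. In the Gly reads from base 3, where the same G is base 4, G4T made up 7.76%, 6.79% and 9.27% in the controls and 15.3%, 12.7% and 16.1% in SCI. The groups of libraries again stood apart. A rarer change at the same base was G6del of Gly, at 0.795% to 1.03% in the controls and 1.41% to 1.97% in SCI. At the base before it, T5G of Gly stood at 3.79% to 5.56% in the controls and 5.95% to 7.20% in SCI. G4del of the Gly reads from base 3 stood at 0.362% to 0.933% in the controls and 1.07% to 2.01% in SCI. Counted against the G6T reads of group 8, reads with A at base 6 were lower in SCI. They stood at 2.63% to 3.59% in the controls and 1.44% to 2.12% in SCI. The next changes overlapped between the groups. T3G in the Gly reads from base 3, the same base as T5G, stood at 6.56%, 9.10% and 13.3% in the controls and 11.97%, 10.8% and 11.2% in SCI. G6del of the second Gly type stood at 0.975% to 2.0% in the controls and 1.48% to 3.30% in SCI.

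Split by length, for G6T and for G4T of the Gly type the SCI libraries lay above the controls at each of the 7 lengths. For the second Gly type this was so at 3 of 7 lengths, where reads were fewer. Reads of 17 to 27 nt, which hold no member, showed the change too, compared over their first 17 bases. There G6T of Gly stood at 8.12%, 9.73% and 9.03% in the controls and 13.1%, 13.1% and 16.0% in SCI. In these short reads the second Gly type overlapped, at 5.38% to 10.2% and 8.62% to 13.7%.

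Most other changes were rare. In group 1, the rRNA-type read with the most counts, the highest of 95 single-base changes was 0.224% and the median 0.00947%. In group 2, with changes of 1% or more set aside, the highest was 0.372% and the median 0.00754%. Counted in the same way, the highest was 0.835% in group 7 and 0.988% in group 9. Setting those changes aside keeps these highest values under 1%. Over 10 of the most abundant reads, 38 changes had at least 100 counts. Of these, 28.9% had every SCI library above every control and 5.26% had every SCI library below. Those that lay above include G6T, T5G and G6del of the Gly type and G4T of its reads from base 3. In the Val type, G26A made up 1.59% to 1.68% of the reads from base 1 in the controls and 1.74% to 2.11% in SCI, whereas in reads from base 3, where this G is base 24, G24A made up 1.74% to 1.91% and 1.54% to 1.68%. The Val change thus lay on opposite sides in the 2 read forms. The source of the changed letters was not tested, and whether a gene copy encodes them was not examined.

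The groups that hold the changed reads can also be compared in level. Group 8, Gly with G6T, stood at 141, 60.7 and 89.9 RPM in the controls and 186, 785 and 589.5 in SCI (log2 fold change 2.34 ± 0.55, edgeR adjusted p = 0.161). They did not overlap between control and SCI, and the adjusted threshold was not passed. Group 85, the second Gly type with G6T, stood at 4.93, 2.74 and 4.25 RPM in the controls and 11.8, 39.7 and 39.6 in SCI (log2 fold change 2.85 ± 0.51, edgeR adjusted p = 0.138). Here too every SCI library lay above every control.

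rRNA-type reads formed the largest family. The family of group 1, at the known 3′ end of 5.8S rRNA, held 45 members and 24.4% of the member counts. Its reads shared a 3′ end: 87.1% of the counts had the same last 12 bases and 67.4% the same first 12. In the Gly-type family the order was the other way, with 60.4% sharing the first 12 bases and 29.1% the last 12. Group 1 stood at 1450.2, 949 and 666 RPM in the controls and 705, 4959 and 3918 in SCI (log2 fold change 1.57 ± 0.65, edgeR adjusted p = 0.325). Group 3, the same end read from 1 base later, stood at 465, 278 and 194 against 242, 1486 and 1329.6 (log2 fold change 1.63 ± 0.65, edgeR adjusted p = 0.304). SCI 1 lay within the controls in both.

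Other parts of rRNA followed other orders of the libraries. Group 4, an inner piece of 28S rRNA, stood at 529, 408 and 256 RPM in the controls and 242, 1172 and 868 in SCI (log2 fold change 0.86 ± 0.54, edgeR adjusted p = 0.519). Group 13, the 5′ end of 5.8S rRNA, stood at 77.7, 36.3 and 15.2 against 309.6, 37.4 and 613, with SCI 1 and SCI 3 high and SCI 2 among the controls (log2 fold change 2.86 ± 1.02, edgeR adjusted p = 0.267). Thus the ends of this RNA differed in which SCI libraries were high. Group 12, the 3′ end of 28S rRNA, stood at 477, 291 and 123 in the controls and 39.9, 182 and 85.4 in SCI (log2 fold change -1.62 ± 0.64, edgeR adjusted p = 0.303). Its highest library was control 1, and SCI 2 fell between the controls.

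Mitochondrial tRNA reads were members because GENCODE ends the gene before the added CCA. These 87 members came from 13 mitochondrial tRNAs, and CCA made up 84.99% of their counts, CC 11.1% and C 3.93%. The largest source was mt-Tk, the lysine tRNA at chrM:7700-7764 on the plus strand, at 159, 35.0 and 69.9 RPM in the controls and 79.6, 393 and 215 in SCI. Second was mt-Tv, the valine tRNA at chrM:1025-1093 on the plus strand, at 263, 105 and 68.9 against 31.7, 235 and 100.2. The groups overlapped for both, with SCI 1 below every control for mt-Tv. Group 41, the largest whose reads mostly end in CCA, is an mt-Tk group and had a log2 fold change of 1.58 ± 0.72 (edgeR adjusted p = 0.362).

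Other reads that match a transcript but for their last bases came mostly from Rny1, the Y1 RNA that binds the Ro protein. This gene lies at chr6:47788069-47788180 on the minus strand. Its 21 members ended mainly in a single A after letters that match the transcript, on 27364 of 31755 counts. Their level was 355, 312 and 159.6 RPM in the controls and 156, 380.0 and 263 in SCI, and the groups overlapped. Group 17, its largest, had a log2 fold change of -0.08 ± 0.37 (edgeR adjusted p = 0.945). Control 1 and SCI 2 were the highest of its libraries. Another 8 members matched a Tmem38b transcript but for mostly 1 last T. The letters of their largest read are known as the 3′ end of 5S rRNA, so they are not taken as reads of that gene. They stood at 89.3, 38.6 and 24.0 RPM in the controls and 30.6, 152 and 81.4 in SCI, and the groups overlapped.

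Some members carried letters of the library preparation. In 1 group, 57 members of 28 nt began with the 24 bases known from the 5′ sequencing adapter and went on with 4 bases. Over all reads with these 24 bases, 254 of the 256 possible combinations of the next 4 bases were seen. HD adapters carry degenerate bases at their ends. The family of 60 members that holds this group stood at 0.392, 12.2 and 2.16 RPM in the controls and 13.1, 129 and 385 in SCI, with SCI 1 just above control 2 and no overlap. All reads with the 24 bases, members or not, stood at 1.74, 30.9 and 6.78 RPM in the controls and 29.5, 249 and 639.8 in SCI, and there SCI 1 lay just below control 2. The 10 remaining adapter-type members form a family that shares only 11 or more bases with the adapter, and the largest reads of its groups end in CCA. That family stood at 70.8, 20.8 and 41.0 RPM in the controls and 11.2, 124 and 52.2 in SCI, so its libraries had another order. All 70 adapter-type members held 1.12% of the member counts, and without them the members' share differed by 1.05 percentage points.

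Group 48 is the largest group that begins with T, has A at base 10 and has no A box. Its source was not found, and its letters are not shown. It stood at 0.131, 3.97 and 1.39 RPM in the controls and 3.28, 55.6 and 141 in SCI (log2 fold change 5.22 ± 1.54, edgeR adjusted p = 0.208). From highest to lowest the libraries were SCI 3, SCI 2, control 2, SCI 1, control 3 and control 1. All reads with the 24 adapter bases had the same order, and the family of 60 adapter-type members had SCI 1 and control 2 exchanged. The sum of all 70 adapter-type members had another order below SCI 3 and SCI 2. There control 1 was the highest control, at 71.2 RPM, and SCI 1 was the lowest library, at 24.3 RPM.

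Only 30 members had T at base 1 and A at base 10, with 0.724% of the member counts, against 2.23% in matched reads of this length and 5.72% in unmatched reads below the threshold. T began 36.8% of the member counts, 33.8% of the matched and 28.2% of the unmatched below the threshold. Group 1, which begins with T, alone held 264038 counts. A B box, the second internal promoter element of tRNA genes (GGTTCGA, any pair of bases, CC, searched on the strand of the read), stood in 8 members with 0.106% of the counts, against 0.137% in matched reads and 1.17% in unmatched reads below the threshold.

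Tested across whole libraries, 463 of the 480 member groups passed the filter on low counts. With edgeR's quasi-likelihood test none of them passed an adjusted p of 0.05, as none of all 15976 features did (0%). At an unadjusted p under 0.05 there were 91 member groups, 83 of them with higher fitted levels in SCI. These were 19.7% of the member groups tested, against 15.1% of all features. The median log2 fold change of the tested groups was 0.77, against 0.11 over all features. The members were chosen on the sum over these libraries, and 421 of the 1195 had over 0.5 of their counts in 1 library. For 306 of them this was SCI 2, so nothing is read from this median or from the share at an unadjusted p under 0.05. DESeq2 called 37 member groups, 36 of them higher in SCI, where it called 1.83% of all features. Every SCI library lay above every control in 52 member groups and below in 3, where the shares over all features were 12.7% and 9.43%. Thus 11.2% of the tested groups stood apart upward, near the background, and 0.648% downward, below it. As the members were chosen on their summed counts, nothing is read from the downward share. Of the 52, 22 were among the 75 A-box groups tested and 23 among the 210 without a near match. Groups that are forms of the same RNA are counted separately here, so these counts are not independent.

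The split of the groups by direction depended on the scaling. Scaled on the reads of 28 to 34 nt alone, edgeR called 27 of 467 member groups, 17 of them higher in SCI, where 4.98% of the 1928 features were called. On that scale 255 of the 467 member groups had a fold change above 0, against 354 of 463 on the scale of all reads, and their median log2 fold change was 0.12.

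Single reads gave a like picture. Of 1113 member reads tested, edgeR called none at an adjusted p of 0.05, and it called none of all 31242 sequences (0%). At an unadjusted p under 0.05 there were 315, of which 300 were higher in SCI. These were 28.3% of the member reads tested, against 16.9% of all sequences. Because the members were chosen on their summed counts in these libraries, nothing is read from this share. DESeq2 called 179 member reads (176 higher), where it called 3.58% of all sequences. Without SCI 1, edgeR called 292 member reads, all higher in SCI, where it called 9.1% of all sequences. Every SCI library lay above every control for 170 member reads and below for 4, against 13% and 9.66% over all sequences.

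The 3 member reads of smallest p with higher levels in SCI were all tRNA-type. The Gly-type read with G6T of 29 nt stood at 5.10, 4.82 and 4.70 RPM in the controls and 18.5, 19.4 and 28.4 in SCI (log2 fold change 2.10 ± 0.25, unadjusted p = 5.72e-05, edgeR adjusted p = 0.126). In this read of 29 nt SCI 1 was close to SCI 2. In the whole group with G6T that holds it, with reads of all lengths, SCI 1 lay far below SCI 2. Whether the near equality goes with the length or with the changed letter was not tested. Another of the 3 reads was of the Leu type. The first read with lower levels in SCI was of the same family, so their letters are set side by side.
Leu-type, higher: gtcaggatggccgagcggtctaaggctgc
Leu-type, lower: tcaggatggccgagcggtctaaggcgct
The higher read stood at 0.567, 0.850 and 0.776 RPM in the controls and 4.17, 6.79 and 4.92 in SCI (log2 fold change 2.78 ± 0.35, unadjusted p = 7.80e-05). The lower read, which is group 473, stood at 2.01, 1.23 and 1.02 against 0.0684, 0.513 and 0.251 (log2 fold change -2.34 ± 0.60, unadjusted p = 0.00544). The higher read begins with an extra g, and both then share the letters up to aaggc. After these the higher read goes on with tgc and the lower with gct. They thus differ in letters, and not only in where they begin and end. The source of the different letters was not tested. Neither read overlapped between the groups.

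The remaining groups of smallest p were small. Group 203, whose reads hold a B box and are known as part of tRNA-Asp, stood at 1.22, 0.567 and 0.817 RPM in the controls and 9.16, 7.56 and 4.52 in SCI (log2 fold change 2.94 ± 0.44, edgeR adjusted p = 0.138). SCI 1 was its highest library. Among groups with lower levels in SCI, group 58, without a near match, stood at 67.7, 41.6 and 16.1 against 6.90, 18.3 and 15.4 (log2 fold change -1.69 ± 0.57, edgeR adjusted p = 0.254). Group 248, which matches the snRNA genes Gm22042, Gm22068 and Gm22317 but for its last base, stood at 9.50, 3.50 and 0.572 against 0.547, 0.983 and 0.703 (log2 fold change -2.65 ± 0.92, edgeR adjusted p = 0.259). Control 3 lay within the SCI range in both groups. The read of group 190, another of the lower reads, stood at 5.23, 6.33 and 2.49 RPM in the controls and 1.78, 2.61 and 1.71 in SCI (log2 fold change -1.27 ± 0.41, edgeR adjusted p = 0.184), and SCI 2 overlapped control 3.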

How the data were processed

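The authors deposited, for each of 6 libraries, distinct read sequences of 17 to 34 nt with raw counts, per the file headers. RNA was extracted with mirVana and sequenced from libraries with HD adapters, per the labels' protocols. The trimmer and filters are not given in the sources used here, and the submitters' processing notes name GRCm38. Reads were matched here to the 141767 transcripts of GENCODE M21, in Python 3.11.15 with pandas 2.3.3 and numpy 2.4.6.

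Counts per first 15 bases, and per sequence with a total of at least 10, were tested with edgeR 4.0.16 (quasi-likelihood, TMM scaling, library size all reads, filterByExpr with a minimum count of 10, Benjamini-Hochberg over all features) in R 4.3.3. DESeq2 1.42.0, other scalings, filters, prefixes and left-out libraries were alternatives. Single values were compared with exact permutation tests. The edgeR test was checked on simulated counts without shifts of whole libraries. That check does not bear on its power with the spread seen here. Site changes were counted over the first 28 bases. Shares of single libraries carry a 95% Wilson interval at most 0.0134 percentage points wide for the members' share, which covers counting error only.

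Groups named were the 10 largest, the 3 of smallest p in each direction, and the largest CCA-ending and T-starting groups. Some groups and reads that the rule names are not reported here. Groups 12 to 24, group 85 and the site changes were chosen after their values were seen. Members and lists were chosen with earlier results of these data known. Nothing in the labels says more than that samples were collected individually, so p-values measure the spread between these samples.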

Additional observations from a re-analysis of the deposited data

How the results depend on the processing

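The members' share stayed higher in SCI under all alternatives tried. No exact test could pass 0.05. The smallest possible p was 0.1 for the permutation test of 3 against 3. For the sign-flip test of 3 pairs it was 0.25. Leaving out 1 library gave differences from 0.570 to 1.68 percentage points. The difference in mean length ran from 0.0905 to 0.599 nt with 1 library left out, and it reversed to -0.0729 nt (exact permutation p = 0.1) when each distinct sequence was counted once per library. The cause was not tested. The count of member groups called was 27 with scaling on the reads of 28 to 34 nt, 37 with DESeq2 and 0 under the other settings. Member sequences called numbered 179 with DESeq2 and 0 to 292 with 1 library left out, the highest without SCI 1. For 20 named groups, 240 refits reversed no direction, and 13 passed the threshold where the reported fit did not.

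Same-numbered libraries did not deviate together (correlations of -0.10 to 0.03 over groups, where 0 of 6 libraries correlated best with their own number, and of -0.07 to 0.13 over sequences, where 2 did). With the replicate block, 53 groups and 181 sequences had an unadjusted p under 0.05, against 91 and 315 without it, and 0 of either were called. Over all features the shares with the block were 11.9% of groups and 15% of sequences. The block left the share difference at 1.07 points (exact sign-flip p = 0.5) and the mean length difference at 0.334 nt (exact sign-flip p = 0.75).

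Reads end at 34 nt, so longer fragments are cut off. Names of rRNA and most tRNA types rest on known letters. Groups near 100 counts hold few reads per library.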
